A study of Mus musculus with 8 samples.

Results

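The collagen genes examined here were 37 listed symbols out of the 32285 genes of the count tables, from Col1a1 to Col28a1, with the cartilage collagens Col2a1 and Col9a1 left out by the list. The 37 genes were chosen by name, with earlier results of these data known. Their RNA was counted cell by cell, with droplet-based sequencing, in cells released from the periosteum, the cell-rich sheath of bone, of the left femurs and tibias of male C57BL/6J mice aged 16 weeks. The mice had been given Normal diet chow (ND) or High fat diet chow (HFD), and the labels name no altered allele in either group. The labels list 4 mice per diet, but the counts were deposited as 1 table per diet and no cell barcode is tied to a mouse. A table does not show how many sequencing libraries it was made from, and the table of each diet is called 1 library here. The spread between mice could therefore not be seen, and no test between diets could be made. All differences below compare 2 libraries, and their intervals cover counting error only.

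Collagens are trimers of chains wound into a triple helix, in which glycine recurs at a fixed spacing because only glycine fits the centre of the helix. Fibril-forming collagens give bone and tendon their tensile strength, and osteoblasts secrete type I collagen as the organic matrix that is then mineralized. Network-forming collagens build basement membranes around vessels and other cells, and fibril-associated collagens with interrupted helices (FACITs) sit on the surface of fibrils. The glycine repeat is visible in the coding sequence, and 5 coding exons are shown for members on which the results below turn. They were read from the GENCODE vM21 annotation of GRCm38 (mm10), the build that the submitters' processing notes name. Capitals mark every glycine codon (GG followed by any base) in the reading frame, and the first 4 are exons of exactly 54 bases from the middle of the longest unbroken repeat, while the last is the exon in which the longest repeat ends.
Col1a1, coding exon 29, chr11:94944914-94944967, plus strand: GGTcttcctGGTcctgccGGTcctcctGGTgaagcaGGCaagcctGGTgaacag
Col1a2, coding exon 29, chr6:4524876-4524929, plus strand: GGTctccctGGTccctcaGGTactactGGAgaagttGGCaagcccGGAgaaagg
Col3a1, coding exon 28, chr1:45335728-45335781, plus strand: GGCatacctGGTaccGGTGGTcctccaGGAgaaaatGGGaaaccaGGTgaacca
Col11a1, coding exon 41, chr3:114153641-114153694, plus strand: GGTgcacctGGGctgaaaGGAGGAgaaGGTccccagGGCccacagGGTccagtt
Col4a1, coding exon 9, chr8:11244486-11244569, minus strand: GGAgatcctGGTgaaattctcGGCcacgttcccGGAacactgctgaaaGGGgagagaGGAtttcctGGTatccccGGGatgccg

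In Col1a1 and Col1a2 a glycine codon opens each of the 6 triplets, and in Col3a1 and Col11a1 a 7th glycine codon lies beside one of them. In the Col4a1 exon the spacing of glycine codons is interrupted. Over whole coding sequences, the longest unbroken run of glycine triplets held 216 to 344 triplets in the 10 fibril-forming members, of which 8 were over 300. In the other 27 members it held 23 to 113 triplets and none was over 300. The fibril-forming members had 21 to 33 coding exons of 54 bases each, against 4 to 28 in the 6 FACIT members, a range that overlaps theirs, 1 to 3 in the 6 basement membrane chains and 0 in the hexagonal network chains Col8a1, Col8a2 and Col10a1. Col4a1 and Col4a2 lie head to head on chromosome 8 (11198423 to 11312826 on the minus strand and 11312805 to 11449287 on the plus strand) and overlap at their starts. Counting was at the 3′ ends of RNA, which lie at opposite ends of this pair.

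The ND library held 6314 barcodes and 48558889 unique molecular identifiers (UMIs, each 1 captured RNA molecule), and the HFD library 6636 barcodes and 49940976 UMIs. After filters on detected genes (over 500, below 8000) and on mitochondrial UMIs (below 20%), 6029 ND and 6224 HFD cells remained, with medians of 4610 and 4823.5 UMIs. Of 15 barcodes found in both libraries, 14 were kept in both and none lay in a mesenchymal, endothelial or pericyte class. Cells were clustered without any gene named as a collagen, so that no member helped to define a class, and a cluster was named as "X-like" from marker genes. Mesenchymal-like cells (406 ND, 667 HFD) were clustered again into fibroblast progenitor-like (207 and 323), tenocyte-like (96 and 157) and osteoblast-like cells (58 and 128), and 2 subclusters stayed unnamed. Subcluster 4 (41 and 45 cells) carried cartilage, osteoblast and neutrophil genes among its leading genes, and 21 ND and 17 HFD cells of it were among the cells with the highest doublet scores. Subcluster 5 held 4 and 14 cells. Endothelial-like cells numbered 116 and 232, and pericyte-like cells 31 and 59.

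Collagen UMIs made up 0.153% of the UMIs of kept ND cells (73603) and 0.282% of those of kept HFD cells (139236). All 37 members had at least 1 UMI over both libraries, 31 had at least 20, 22 at least 200 and 18 at least 1000. Levels are given as UMIs per 1000000 UMIs of the class (UPM); they count 3′ ends and are not divided by gene length. Over all kept cells the summed level was 1530 UPM (95% counting interval 1519 to 1541) in ND and 2818 (2803 to 2833) in HFD. At this level of pooling, more stromal cells and more collagen RNA per cell cannot be told apart, and the HFD library held more cells of every stromal class. The classes therefore come first below.

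The summed collagen level set the cell classes far apart. In osteoblast-like cells, which lay down bone matrix, it was 52183 UPM in ND and 51306 in HFD, which is 5.22% and 5.13% of all UMIs captured there. In fibroblast progenitor-like cells it was 10051 and 11921 UPM, and in tenocyte-like cells, the tendon-type fibroblasts at attachment sites, 11969 and 10156. Endothelial-like cells held 1535 and 1621 UPM and pericyte-like cells, which wrap small vessels, 1353 and 1280. B cell-like cells, which should lack collagen RNA, held 43.6 (39.1 to 48.4) and 93.1 UPM (86.4 to 100.1). The level in B cell-like cells was 2.13-fold higher in HFD (1.88 to 2.44) and far below the level in each named mesenchymal subcluster. It is used here as a rough background and was not shown to be free RNA alone. In B cell-like cells Col5a3 had 75 ND and 109 HFD UMIs and Col27a1 51 and 55, beside 41 and 197 of Col1a1. In mesenchymal-like cells Col5a3 had 561 and 933 UMIs, beside 21158 and 45870 of Col1a1. A single HFD B cell-like cell held 10.4% of the collagen UMIs of its class.

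**Figure D1:**
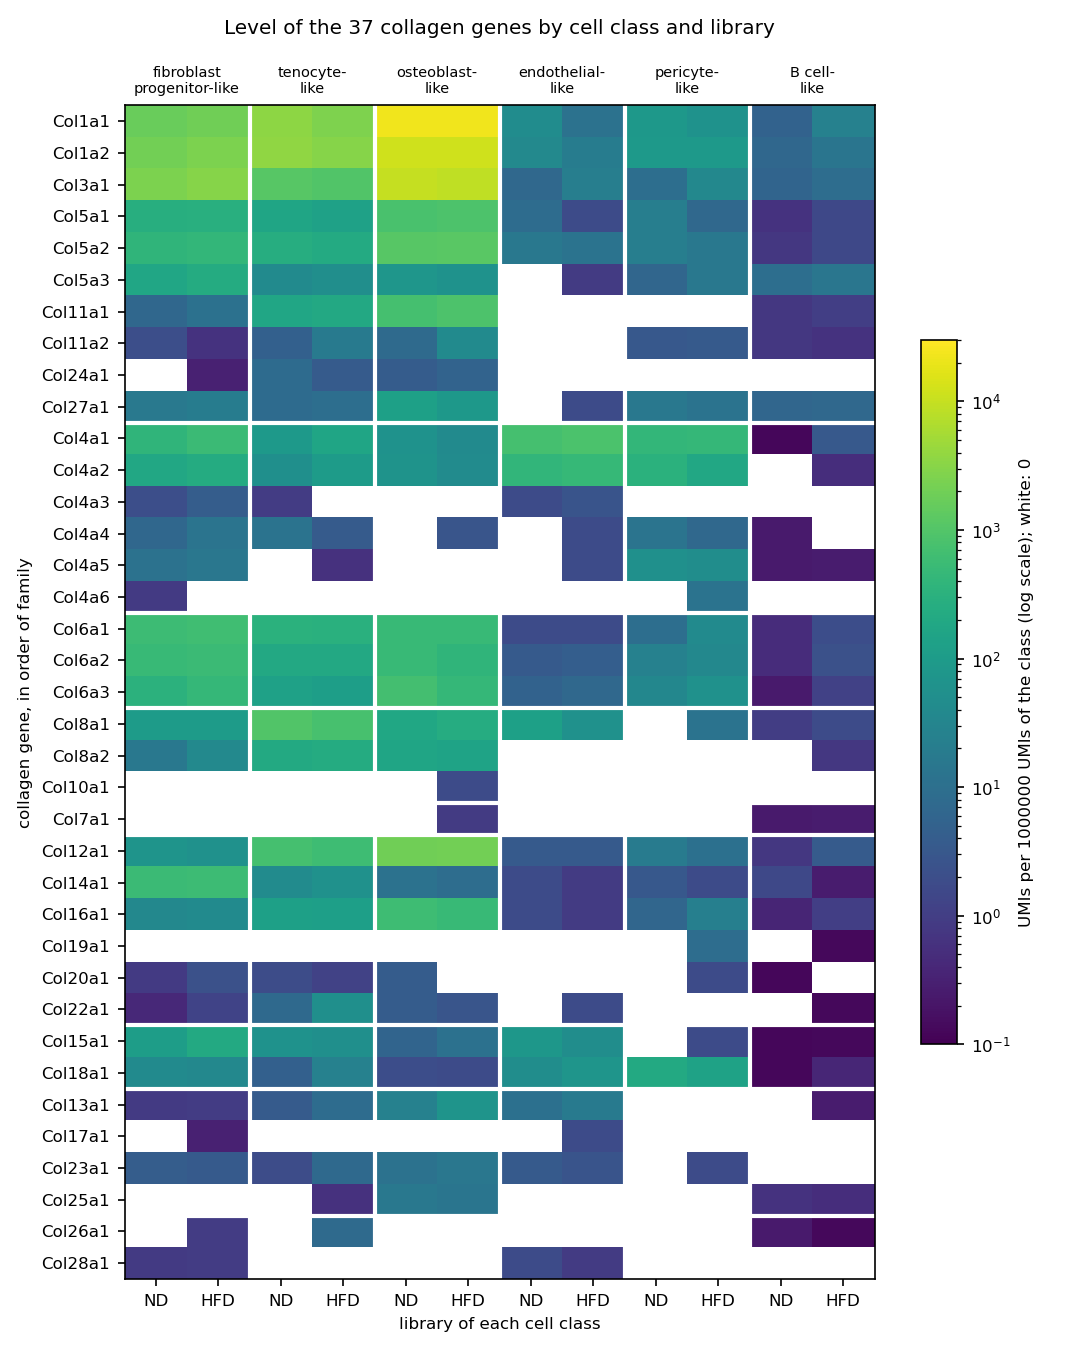
Level of each of the 37 collagen genes (rows, in order of family) in 6 cell classes of the ND and HFD library (columns), in UMIs per 1000000 UMIs of the class on a log colour scale, with white for 0. Osteoblast-like cells are brightest for Col1a1 (22562 and 22741 UPM), endothelial-like cells for Col4a1 (729 and 841 UPM), and B cell-like cells are dim throughout.

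Among the fibril-forming collagens, Col1a1 and Col1a2, the chains of type I collagen, and Col3a1, the type III chain of distensible tissues, held most of the collagen UMIs. In osteoblast-like cells Col1a1 stood at 22562 UPM in ND and 22741 in HFD, Col1a2 at 11933 and 12056, and Col3a1 at 10022 and 8936. In fibroblast progenitor-like cells Col1a1 stood at 1701 and 1934 UPM, Col1a2 at 2079 and 2452, and Col3a1 at 2503 and 3078. In tenocyte-like cells the same genes stood at 3546 and 2634, 3640 and 3064, and 1138 and 974.5 UPM. Col3a1 was thus the leading collagen by UMIs in the fibroblast progenitor-like cells (24.9% and 25.8% of their collagen UMIs), and Col1a1 in the osteoblast-like cells (43.2% and 44.3%). In endothelial-like cells Col1a1 was at 45.8 and 11.5 UPM, and the HFD value lay below the 25.4 UPM of HFD B cell-like cells and is read as background.

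The minor fibrillar chains nucleate fibrils or set their diameter. Col5a1 and Col5a2 of type V were at 815 and 1142 UPM in ND and 877 and 1174 in HFD osteoblast-like cells. In fibroblast progenitor-like cells Col5a1 was at 266 and 287 UPM and Col5a2 at 388 and 421. Col5a3, a further type V chain, went the other way between classes, with 175 and 233 UPM in fibroblast progenitor-like cells against 76.4 and 62.6 in osteoblast-like cells. B cell-like cells held 9.44 and 14.1 UPM of Col5a3, more than of Col1a1 in the ND library. Col11a1, a chain of type XI collagen that is also found in bone, was at 732 and 890 UPM in osteoblast-like, 177 and 204 in tenocyte-like, and 6.72 and 11.1 in fibroblast progenitor-like cells. Col27a1, a large fibrillar chain, was highest in osteoblast-like cells at 131 and 82.5 UPM, while Col24a1 had 35 UMIs in all.

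The basement membrane chains Col4a1 and Col4a2, which assemble as a trimer in nearly all basement membranes, were highest in endothelial-like cells. Col4a1 stood at 729 UPM in ND and 841 in HFD endothelial-like cells, at 418 and 435 in pericyte-like cells, and at 383 and 532 in fibroblast progenitor-like cells. It was lowest among the named stromal classes in osteoblast-like cells, at 62.7 and 41.7 UPM. Col4a2 was also highest in endothelial-like cells, at 401 and 478 UPM. Pericyte-like cells exceeded fibroblast progenitor-like cells in Col4a2 in ND (307 against 192 UPM) and not in HFD (195 against 239 UPM). Together the basement membrane family made up 73.7% and 81.8% of the collagen UMIs of endothelial-like cells and 58.8% and 54.5% of those of pericyte-like cells, against 5.93% and 6.73% in fibroblast progenitor-like cells. Of the chains with restricted basement membranes, Col4a5 was highest in pericyte-like cells (57.0 and 47.9 UPM), Col4a4 had 110 UMIs in all, Col4a3 27 and Col4a6 15.

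The 3 chains of type VI collagen, which form beaded filaments around cells, were counted in every named mesenchymal subcluster and were lowest in tenocyte-like cells. Col6a1 was at 567 and 629 UPM in fibroblast progenitor-like, 316 and 295 in tenocyte-like, and 491 and 493 in osteoblast-like cells. Col6a2 was at 485 and 533, 201 and 203, and 495 and 383 UPM in the same classes. Col6a3 was at 336 and 441, 135 and 119.9, and 693 and 453 UPM. In endothelial-like cells the 3 chains together had 6 UMIs in ND and 15 in HFD (10.6 and 13.3 UPM), and in pericyte-like cells 22 and 77 UMIs (69.7 and 137 UPM).

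Type VIII collagen, a short-chain network former, was highest in tenocyte-like cells among the named classes, by a wide margin for Col8a1 and a smaller one for Col8a2. Col8a1 was at 969.9 and 771 UPM in tenocyte-like cells against 180 and 247 in osteoblast-like and 104 and 102 in fibroblast progenitor-like cells. Col8a2 was at 214 and 237 UPM in tenocyte-like, 164 and 149 in osteoblast-like and 15.5 and 38.5 in fibroblast progenitor-like cells. Endothelial-like cells held 127 and 59.5 UPM of Col8a1 and no UMI of Col8a2 in either library, which allows up to 5.28 UPM in ND and 2.66 in HFD (3 counts). Col10a1, the collagen of hypertrophic cartilage, had 2 UMIs, and Col7a1, the anchoring fibril collagen of skin, had 16 in all kept cells.

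The FACITs split between the mesenchymal subclusters. Col12a1, a FACIT of dense connective tissue, was at 1929 and 2024 UPM in osteoblast-like and 731 and 595 in tenocyte-like cells, but at 67.2 and 60.2 in fibroblast progenitor-like cells. Col14a1 had the opposite order, with 546 and 579 UPM in fibroblast progenitor-like, 44.9 and 58.4 in tenocyte-like and 11.7 and 9.07 in osteoblast-like cells. Col16a1 was highest in osteoblast-like cells (597 and 483 UPM), with 133 and 123 in tenocyte-like and 35.7 and 41.7 in fibroblast progenitor-like cells. Col22a1, found at tissue junctions, had 319 UMIs in all and its highest level, 338 UPM over both libraries, in the few cells of subcluster 5. Col20a1 had 50 UMIs and Col19a1 16.

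Of the multiplexins, which carry heparan or chondroitin sulfate chains at basement membranes, Col15a1 was highest in fibroblast progenitor-like cells (112 and 211 UPM), with 77.4 and 48.8 UPM in endothelial-like and 60.7 and 53.0 in tenocyte-like cells. Col18a1, the precursor of endostatin, was highest in pericyte-like cells, at 209 and 140 UPM, with 49.3 and 72.8 in endothelial-like and 42.4 and 35.3 in fibroblast progenitor-like cells. Among the transmembrane collagens Col13a1 reached 25.5 and 68.0 UPM in osteoblast-like cells, Col25a1 15.7 and 13.6 and Col23a1 11.7 and 14.5, while Col17a1 had 5 UMIs in all. Col26a1 had 23 UMIs and Col28a1 11.

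Likeness of pattern was described by the Pearson correlation of log2(UPM + 10) over 13 classes and subclusters, both libraries summed. These points share their libraries and the clustering, and the values are descriptions. Most of the 13 were blood cell classes, in which most collagens lay below the added 10 UPM. A high r therefore partly restates the contrast of stromal with blood cells. Col4a1 and Col4a2 had r = 0.997, Col1a1 and Col1a2 r = 0.994, and Col8a1 and Col8a2 r = 0.900. Among 11693 genes that are not collagens, those most like Col1a1 were Timp1 (0.994), Kdelr3 (0.993), Scarf2 (0.992), Mmp23 (0.991) and Fap (0.990). Those most like Col4a1 were Tns2 (0.986), Eln (0.983), Tril (0.983), Lama4 (0.979) and Meox2 (0.976), of which Lama4 encodes a laminin chain of vascular basement membrane and Eln elastin. Those most like Col14a1 were Pcolce2 (0.993), Has1 (0.990), Anxa8 (0.985), Gfpt2 (0.984) and Sfrp1 (0.983), and Pcolce2 encodes a helper of procollagen processing.

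The ratio of chains compares genes within a library and a class. The number of Col1a1 UMIs per Col1a2 UMI was 1.89 (1.83 to 1.95) in ND and 1.89 (1.85 to 1.93) in HFD osteoblast-like cells. It was 0.818 (0.785 to 0.853) and 0.789 (0.763 to 0.816) in fibroblast progenitor-like cells. In tenocyte-like cells it was 0.974 (0.931 to 1.02) in ND and 0.860 (0.825 to 0.896) in HFD. The classes therefore differed by more than counting error in each library, and osteoblast-like cells had the most Col1a1 per Col1a2 among the named mesenchymal subclusters. Most type I collagen holds more chains from Col1a1 than from Col1a2. Capture of both genes need not be equal, so the ratio is compared between classes and not read as chain number. In all mesenchymal-like cells together it was 1.29 in ND and 1.50 in HFD, while in no named subcluster was it higher in HFD. In the unnamed subcluster 4 it was 1.19 (1.11 to 1.29) in ND and 2.34 (2.26 to 2.43) in HFD. Of the 10020 Col1a1 and 4278 Col1a2 UMIs of HFD subcluster 4, 4366 and 957 came from the highest cell for each gene. The ratio without the highest cells was not computed.

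The ratio of Col3a1 to Col1a1 ran in a different order, with 1.47 and 1.59 in fibroblast progenitor-like, 0.321 and 0.370 in tenocyte-like and 0.444 and 0.393 in osteoblast-like cells. Col4a1 per Col4a2 was 1.82 and 1.76 in endothelial-like and 2.00 and 2.22 in fibroblast progenitor-like cells. In pericyte-like cells it was 1.36 (1.04 to 1.79) in ND and 2.23 (1.77 to 2.82) in HFD, intervals that overlapped only narrowly. Col6a3 per Col6a1 was 1.41 in ND and 0.917 in HFD osteoblast-like cells, with intervals that did not overlap, against 0.592 and 0.701 in fibroblast progenitor-like cells. Of the 354 Col6a3 UMIs of ND osteoblast-like cells, 93 came from 1 cell. Of the 544 Col6a1 UMIs of HFD osteoblast-like cells, 103 came from 1 cell. Without the highest cells this ratio was not computed either.

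**Figure D2:**
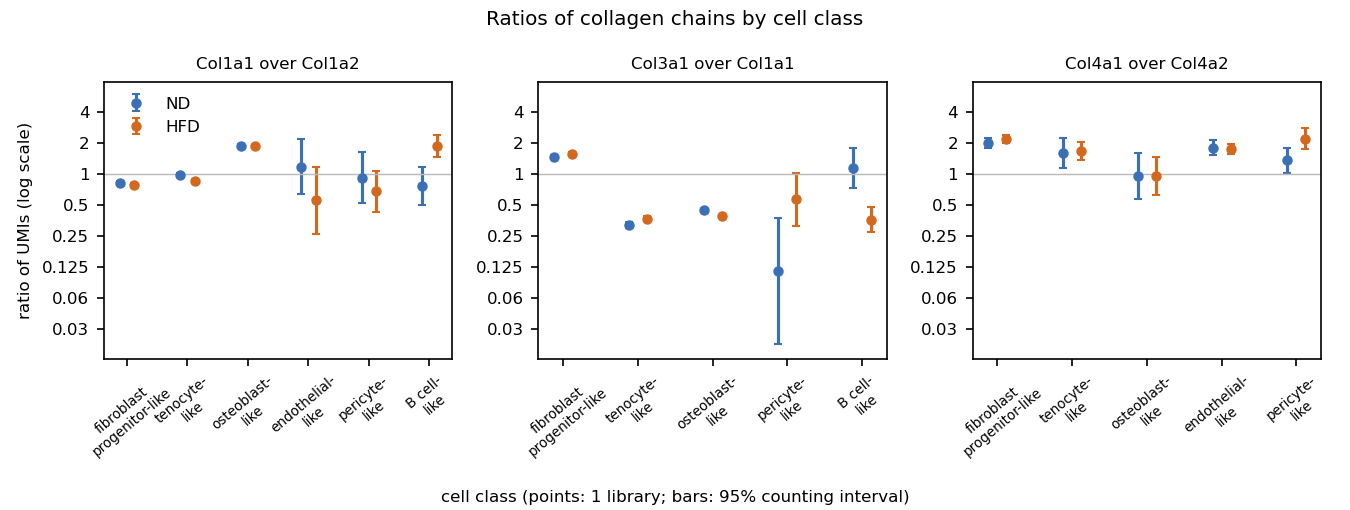
Ratio of UMIs of Col1a1 over Col1a2, Col3a1 over Col1a1 and Col4a1 over Col4a2 (log axes) by cell class, for the ND (blue) and HFD (orange) library, with 95% counting intervals. The osteoblast-like cells stand at 1.89 in both libraries for Col1a1 over Col1a2, and the fibroblast progenitor-like cells stand above the other mesenchymal subclusters for Col3a1 over Col1a1.

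Cells of a class differed widely among themselves. The median share of collagen in a cell's UMIs was 4.24% in ND and 3.86% in HFD osteoblast-like cells, and the highest cells reached 16.4% and 21.6%. Collagen UMIs exceeded 10% of a cell's UMIs in 7 of 58 ND and 12 of 128 HFD osteoblast-like cells. The median share was 0.747% and 0.886% in fibroblast progenitor-like cells and 1.03% and 0.797% in tenocyte-like cells. In endothelial-like cells it was 0.124% and 0.155%, and 5 ND and 9 HFD cells had no collagen UMI. Every mesenchymal-like cell had at least 1, whereas 82.8% of ND and 70.6% of HFD B cell-like cells had none. With each cell thinned to 1000 UMIs, Col1a1 was seen in 73.9% of ND and 76.0% of HFD mesenchymal-like cells (98.0% and 97.9% unthinned) and in 0.839% and 2.75% of B cell-like cells (2.45% and 7.76% unthinned). Shallower cells left out by the thinning numbered 4 HFD mesenchymal-like, 1 ND and 2 HFD B cell-like cells. Median depths before thinning were 10687.5 and 9556 UMIs in mesenchymal-like and 3912.5 and 3831 in B cell-like cells.

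**Figure D3:**
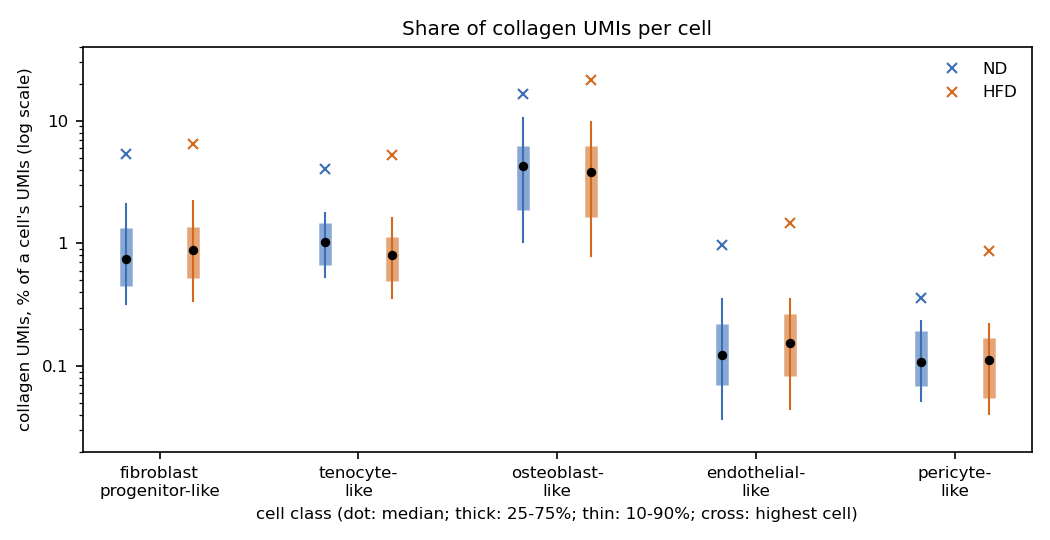
Share of collagen in the UMIs of single cells (percent, log axis) for 5 classes of the ND (blue) and HFD (orange) library, with the median (dot), the 25 to 75% range (thick bar), the 10 to 90% range (thin bar) and the highest cell (cross). Medians of the osteoblast-like cells (4.24% and 3.86%) lie well above those of the endothelial-like cells (0.124% and 0.155%), and the ranges of the libraries overlap in every class.

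Between the libraries, the summed collagen level of mesenchymal-like cells was 14661 UPM in ND and 19042 in HFD, 1.30-fold higher in HFD (1.29 to 1.31). The makeup of the class differed as well. Osteoblast-like cells, the class richest in collagen, were 14.3% (11.0 to 18.1) of ND and 19.2% (16.3 to 22.4) of HFD mesenchymal-like cells, and their share of the UMIs of the class was 10.7% and 15.8%. When each subcluster was weighted by its share of the mesenchymal-like cells of both libraries together, the summed level was 17649 and 19376 UPM, 1.10-fold higher in HFD (1.09 to 1.11). This weighting kept the 2 unnamed subclusters and was not repeated without them, so it does not give the difference over the named subclusters alone. Taken singly, those had log2 ratios of 0.25 in fibroblast progenitor-like, -0.24 in tenocyte-like and -0.02 in osteoblast-like cells. In the unnamed subcluster 4 the fibril-forming members were at 5967 UPM in ND and 23770 in HFD. Without the 2 unnamed subclusters the log2 ratio of the pooled class went from 0.38 to 0.23. Markers of other cells also moved: the summed level of 10 neutrophil markers in mesenchymal-like cells was 19248 UPM in ND and 9624 in HFD, with 0 of the 10 higher in HFD. Of these UMIs, 72457 of 91845 in ND and 51337 of 67088 in HFD lay in the unnamed subcluster 4. The log2 ratio of these markers was -2.56 in fibroblast progenitor-like, 0.31 in tenocyte-like and 2.09 in osteoblast-like cells. Their part in the collagen values was not tested.

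Within the named subclusters the summed level differed little and not in a common direction. It was 1.19-fold higher in HFD in fibroblast progenitor-like cells (1.17 to 1.21), 0.849 times the ND level in tenocyte-like cells (0.829 to 0.868), and 0.983 times the ND level in osteoblast-like cells (0.969 to 0.998). The direction in osteoblast-like cells was not stable, with log2 ratios between -0.07 and 0.08 over 11 alternative settings. In subcluster 4 it was 7504 UPM in ND and 26502 in HFD, 3.53-fold higher, and a single HFD cell held 31.8% of the collagen UMIs. In subcluster 5 it was 12808 and 4450 UPM, on 4 and 14 cells.

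**Figure D4:**
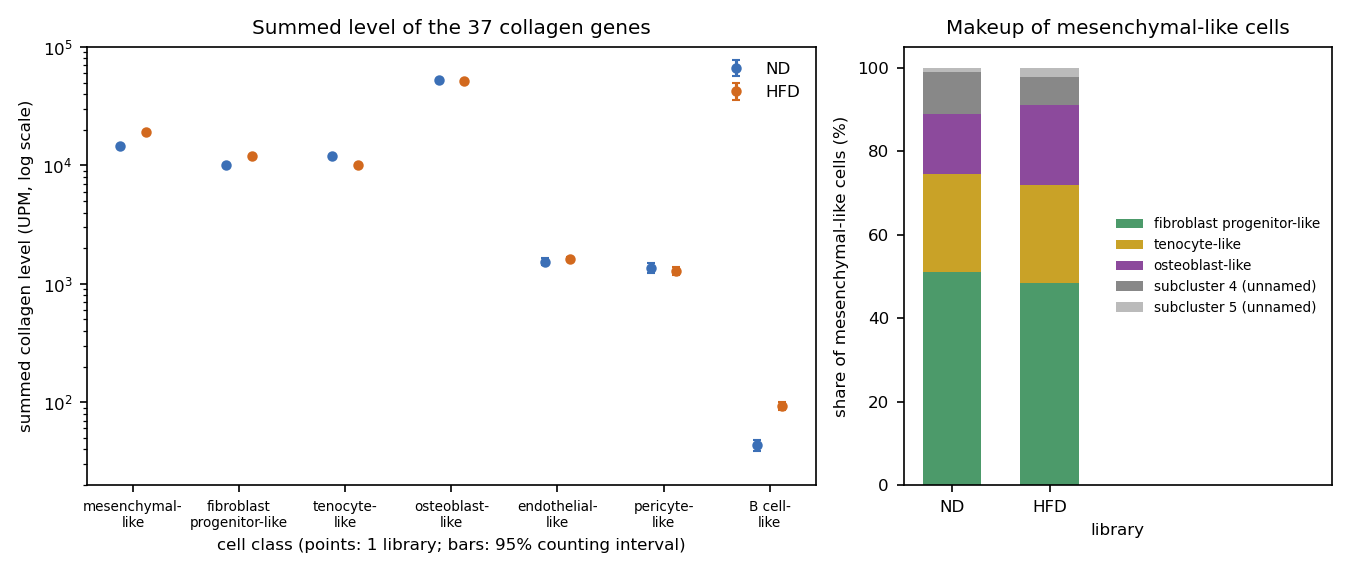
Left, summed level of the 37 collagen genes (UPM, log axis) by cell class in the ND (blue) and HFD (orange) library with 95% counting intervals; right, share of each subcluster among the mesenchymal-like cells of each library (percent). The pooled mesenchymal-like cells differ (14661 and 19042 UPM) while osteoblast-like cells do not stand apart (52183 and 51306 UPM), and the osteoblast-like share is 14.3% in ND and 19.2% in HFD.

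A member was called higher or lower when its levels differed by at least 1.5-fold with a 95% counting interval that left out no difference, over members with at least 20 UMIs in the class. The 20 UMIs were summed over both libraries, for members and for all genes alike. A member with few UMIs in 1 library could thus be counted through the other alone. In mesenchymal-like cells 29 of the 37 members were counted; 25 had a higher level in HFD and 4 a lower one, with a median log2 ratio of 0.25 against 0.05 over all 12617 genes counted. Of these, 5 were called higher, beside 4.61% of all genes, and none lower, beside 3.92% of all genes. The 8 members with too few UMIs were Col4a6, Col7a1, Col10a1, Col17a1, Col19a1, Col20a1, Col26a1 and Col28a1. With these equal subcluster weights 4 were called higher, beside 4.3% of all genes, and none lower, beside 3.65%; the median log2 ratio was 0.18, and Col11a1 was no longer called.

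The members called higher in the pooled mesenchymal-like cells were of modest level. Col11a1 was at 146 UPM in ND and 268 in HFD (log2 ratio 0.88, 0.75 to 1.01), a difference that was 0.21 in tenocyte-like and 0.28 in osteoblast-like cells taken alone. Of the 696 ND and 1871 HFD UMIs of Col11a1, 374 and 981 lay in osteoblast-like and 189 and 335 in tenocyte-like cells. Most of the rest lay in the unnamed subcluster 4. Col11a2, the partner chain of Col11a1, was at 8.38 and 35.7 UPM (2.08), with 249 HFD UMIs in 40 cells. Of these UMIs 30 lay in tenocyte-like and 45 in osteoblast-like cells, and most lay in the unnamed subcluster 4. Col13a1 was at 3.98 and 13.6 UPM (1.75), with 19 ND UMIs, and was counted only through its 95 HFD UMIs. Col22a1 was at 17.6 and 31.0 UPM (0.81), with 64 of 216 HFD UMIs in 1 cell. Col15a1 was at 74.6 and 121 UPM (0.70, 0.52 to 0.88), with 843 HFD UMIs spread over 220 cells. These are genes seen in few cells apart from Col11a1 and Col15a1. Col1a1 was just short of the call, with 4434 and 6580 UPM (0.57, 0.55 to 0.59), and its log2 ratio was 0.18 at equal subcluster weights. That weighting kept the unnamed subcluster 4, with 1521 ND and 10020 HFD Col1a1 UMIs, 4366 of the latter in 1 cell. Within named subclusters the Col1a1 log2 ratio was 0.19 in fibroblast progenitor-like, -0.43 in tenocyte-like and 0.01 in osteoblast-like cells. In the pooled cells Col8a1 (305 and 274 UPM) and Col14a1 (327 and 291 UPM) were the only members lower in HFD beyond counting error. Their log2 ratios were -0.16 and -0.17. At equal subcluster weights Col8a1 kept -0.20 (-0.30 to -0.10), whereas Col14a1 had -0.005 (-0.10 to 0.09). Fibroblast progenitor-like cells held 1300 of the 1562 ND and 1817 of the 2026 HFD UMIs of Col14a1, and its log2 ratio there was 0.08. The smaller unnamed subcluster (4 ND cells) held 103 of the ND and none of the HFD UMIs.

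In fibroblast progenitor-like cells 23 members were counted, 19 with a higher and 4 with a lower level in HFD. Col15a1, the basement membrane multiplexin, was at 112 UPM in ND and 211 in HFD, a log2 ratio of 0.92 (0.71 to 1.13), on 266 UMIs in 73 of 207 cells and 663 UMIs in 148 of 323 cells. Over 12 alternative settings its log2 ratio ranged from 0.82 to 0.96. This subcluster had both Pi16 and Ccl11 among its leading genes and was not divided further in the main clustering. A different makeup of the subcluster and a higher Col15a1 level per cell were therefore not told apart. Col8a2 was at 15.5 and 38.5 UPM (1.30, 0.77 to 1.88), on 27 ND and 65 HFD cells. Col4a4 was at 6.72 and 12.7 UPM (0.90, 0.05 to 1.86), with 16 ND UMIs, and was counted only through its 40 HFD UMIs. These 3 were called higher, beside 5.46% of all 10676 genes counted, and none was called lower, beside 3.92%. Neutrophil marker RNA in this subcluster was at 7074 UPM in ND and 1204 in HFD, and its part in these values was not tested.

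The larger members of this subcluster were moderately higher in HFD without passing 1.5-fold. Col3a1 had a log2 ratio of 0.30 (0.25 to 0.35), Col1a2 of 0.24 and Col1a1 of 0.19. Among network and filament chains, Col4a1 had 0.47 (0.36 to 0.59), Col4a2 0.32, Col6a3 0.39, and Col6a1 and Col6a2 0.15 and 0.14. Col5a3 had 0.41 (0.24 to 0.59), but 81 of its 416 ND UMIs lay in 1 cell, and without the highest cell of each library it was 0.62 and passed the call. Col14a1, the FACIT with its highest level here, had 0.08 (-0.02 to 0.19), and Col12a1 had -0.16 (-0.47 to 0.15).

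In tenocyte-like cells the abundant members Col1a1, Col1a2, Col3a1, Col8a1 and Col12a1 were lower in HFD by less than 1.5-fold. The basement membrane chains Col4a1 and Col4a2 were higher. Col1a1 was at 3546 UPM in ND and 2634 in HFD, 1.35-fold lower (log2 ratio -0.43, -0.49 to -0.37), and over 12 alternative settings the log2 ratio lay between -0.50 and -0.39. Col1a2 had -0.25, Col3a1 -0.22, Col8a1 -0.33 and Col12a1 -0.30, each beyond counting error. The summed level of 10 osteoblast markers in the same cells was also lower in HFD, at 1346 UPM in ND and 824 in HFD (-0.71, -0.82 to -0.60), with 3 of the 10 higher, and its part in these values was not tested. Col4a1 was at 86.9 and 168.0 UPM (0.95, 0.61 to 1.31) and Col4a2 at 54.2 and 99.8 UPM (0.87, 0.44 to 1.34). Of their HFD UMIs, 70 of 276 and 39 of 164 came from 1 cell each, and without the highest cell of each library the log2 ratios were 0.63 and 0.60. As a mean over cells of the level per cell they were 0.58 and 0.39, both under 1.5-fold. Col4a1 UMIs were found in 55 of 96 ND and 72 of 157 HFD cells, so the share of cells with a UMI was not higher in HFD.

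In all, 22 members were counted in tenocyte-like cells and 5 were called higher, beside 4.58% of all 9353 genes, and none lower, beside 3.23%. The other 3 calls rested on few cells, with 13 HFD cells for Col11a2, 9 for Col18a1 and 5 for Col22a1, and in Col22a1 64 of 87 HFD UMIs lay in 1 cell. These 3 members had 5, 5 and 8 ND UMIs and were counted only through the HFD library. Without the highest cell of each library Col18a1 was not called. The summed level of 8 endothelial markers in tenocyte-like cells was 34.6 UPM in ND and 29.8 in HFD, with 2 of the 8 higher in HFD, and that of 9 pericyte markers 54.2 and 79.7 UPM with 7 of the 9 higher. The part of pericyte RNA in the Col4a1 and Col4a2 values was not tested.

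In osteoblast-like cells the main chains of bone matrix were close to equal between libraries. Col1a1 had a log2 ratio of 0.01 (-0.02 to 0.04), Col1a2 of 0.01 (-0.03 to 0.06) and Col12a1 of 0.07 (-0.04 to 0.18), and Col3a1 was slightly lower in HFD at -0.17 (-0.21 to -0.12). Of 21 members counted, 2 were called higher, beside 3.95% of all 7547 genes, and 2 lower, beside 3.75%. Those called higher were Col11a2, with 4 ND UMIs in 1 cell and 45 HFD UMIs in 15 cells, and Col13a1, a transmembrane collagen, at 25.5 and 68.0 UPM (1.37, 0.56 to 2.39). Both were counted only through the HFD library, Col13a1 with 13 ND and 75 HFD UMIs. Those called lower were Col6a3, at 693 and 453 UPM (-0.62, -0.81 to -0.41), and Col27a1, at 131 and 82.5 UPM (-0.67, -1.14 to -0.19). Without the highest cell of each library Col6a3 had a log2 ratio of -0.31 and was not called, while Col27a1 kept -0.66. Neutrophil marker RNA here ran opposite to the fibroblast progenitor-like cells, with 1676 UPM in ND and 7154 in HFD. Summed osteoblast markers were at 16826 and 20282 UPM (8 of 10 higher in HFD) and tenocyte markers at 907 and 1444 (5 of 8). Pericyte markers were at 384 and 809 UPM (3 of 9 higher) and chondrocyte markers at 1053 and 649 (3 of 9). The part of these shifts was not tested, and makeup of the subcluster and level per cell were not told apart.

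**Figure D5:**
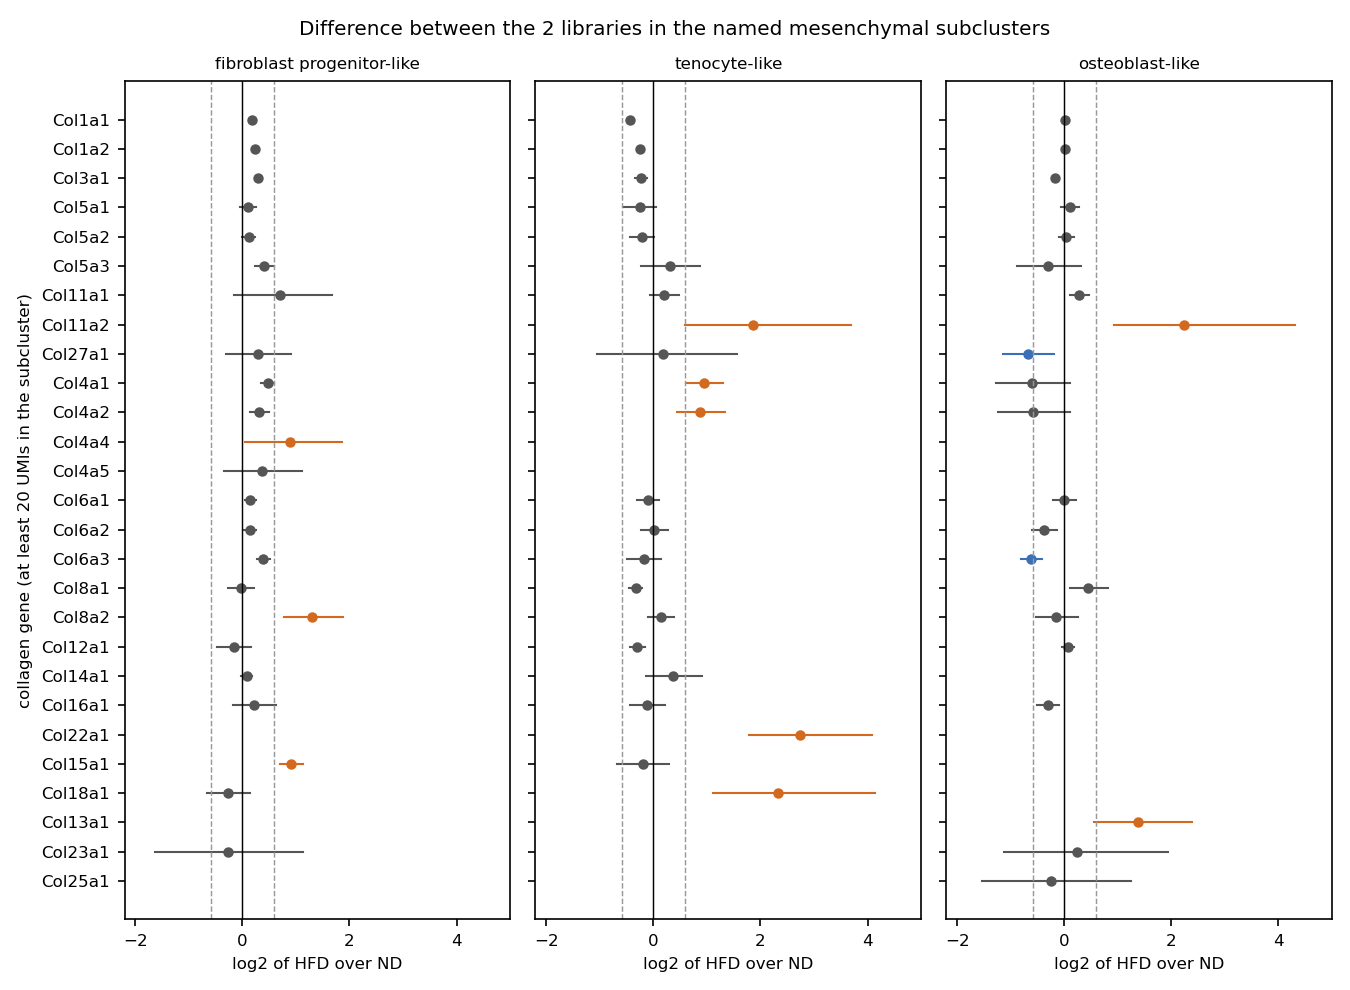
Log2 of the HFD over the ND level of each collagen gene with at least 20 UMIs in the named mesenchymal subclusters, with 95% counting intervals; orange points were called higher and blue points lower in HFD, and dashed lines mark 1.5-fold. Col1a1 stands at 0.19 in fibroblast progenitor-like, -0.43 in tenocyte-like and 0.01 in osteoblast-like cells, and Col15a1 is called in the fibroblast progenitor-like cells (0.92).

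In endothelial-like cells the summed level was 1.06-fold higher in HFD, within counting error (0.974 to 1.15). Col4a1 was at 729 UPM in ND and 841 in HFD (log2 ratio 0.21, 0.04 to 0.38), and Col4a2 at 401 and 478 UPM (0.25, 0.03 to 0.48). After thinning to 1000 UMIs, 50.9% of cells of both libraries had a Col4a1 UMI (84.5% and 87.1% unthinned, median depths of 4335 and 4040 UMIs, 4 and 8 shallower cells left out). In B cell-like cells the share was 0.0646% and 0.603% (0.0645% and 1.34% unthinned). Col8a1 was at 127 and 59.5 UPM (-1.09, -1.59 to -0.59), and it was called lower also without the highest cell of each library (-1.05). The summed level of 8 tenocyte markers was 81.0 and 36.4 UPM in endothelial-like cells (-1.15, -1.80 to -0.51), with 2 of the 8 higher in HFD, and its part was not tested. Col15a1 was at 77.4 and 48.8 UPM (-0.67, -1.26 to -0.06), and without those cells at a log2 ratio of -0.45 that was not called.

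In these cells 10 members were counted, of which 1 was called higher, beside 3.62% of all 7765 genes, and 4 lower, beside 3.71%. The calls of Col1a1 and Col1a2 rested on single cells. For Col1a1, 23 of 26 ND UMIs lay in 1 cell, and for Col1a2 19 of 22, and without the highest cell of each library their log2 ratios were 0.58 and 1.62, against values below 0 with them. Col3a1, the member called higher, had 4 UMIs in ND and 25 in HFD, the latter in 18 cells with at most 5 UMIs in 1 cell. It was counted only through the HFD library. Its HFD level was 22.2 UPM, against 9.17 UPM in HFD B cell-like cells. Its log2 ratio was 1.52 with and 1.56 without the highest cell of each library, and the counting interval of the latter just included 0. The summed level of 9 pericyte markers in endothelial-like cells was 132 UPM in ND and 437 in HFD, and that of 10 mesenchymal markers 238 and 404 UPM; their part was not tested.

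Pericyte-like cells were few, and 10 members were counted in them. Col4a1 was at 418 UPM in ND and 435 in HFD (0.05, -0.25 to 0.37), whereas Col4a2 was at 307 and 195 UPM (-0.65, -1.06 to -0.25) and was called lower, also without the highest cell of each library (-0.65). Over 13 alternative settings the log2 ratio of Col4a2 lay between -1.54 and -0.59 and that of Col4a1 between -0.16 and 0.89. The summed level of 8 endothelial markers in pericyte-like cells was 168 UPM in ND and 79.9 in HFD (-1.07, -1.68 to -0.47), with 1 of the 8 higher, and its part in the Col4a2 value was not tested. Col18a1 was at 209 and 140 UPM (-0.58, -1.07 to -0.08), just short of the call. The calls were 1 lower, beside 5.02% of all 5102 genes, and 2 higher, beside 3.14%, namely Col3a1 with 3 and 20 UMIs, of which 13 lay in 1 HFD cell, and Col6a1 with 3 and 23 UMIs. Col3a1 and Col6a1 were counted only through the HFD library.

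Collagen chains need a set of enzymes, chaperones and receptors, of which 42 were listed. In mesenchymal-like cells 41 were counted, 31 with a higher and 10 with a lower level in HFD, with a median log2 ratio of 0.10 against 0.05 over all genes. Called higher was 1 of the 41, beside 4.61% of all genes, and called lower was none, beside 3.92%. The gene called was Itga1, a chain of a collagen-binding integrin, at 21.4 UPM in ND and 33.6 in HFD (0.65, 0.31 to 1.00). Of the prolyl hydroxylation group, 9 of 10 were higher, led in level by Ppib, a proline isomerase, at 731 and 758 UPM (0.05). Within subclusters the group was divided, with 5 of 9 counted higher in fibroblast progenitor-like, 4 of 9 in tenocyte-like and 4 of 9 in osteoblast-like cells, against 9 of 9 in the unnamed subcluster 4. Of the lysyl hydroxylation and glycosylation group, 4 of 5 were higher, led by the hydroxylase Plod2 at 101 and 127 UPM (0.33). Of the folding and export group, 6 of 7 were higher, but its most abundant gene, the collagen chaperone Serpinh1, was at 836 and 789 UPM (-0.08). This group was also divided within subclusters, with 6 of 7 higher in fibroblast progenitor-like, 2 of 7 in tenocyte-like and 3 of 7 in osteoblast-like cells.

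The later steps differed among themselves. Of the 6 propeptide removal genes counted, 3 were higher, with the enhancer Pcolce at 904 and 953 UPM (0.08). Of the 5 crosslinking genes 1 was higher, with the amine oxidase Loxl1 at 192 and 182 UPM (-0.08). Within subclusters, 2 of 5 crosslinking genes counted were higher in fibroblast progenitor-like, 3 of 4 in tenocyte-like and 3 of 4 in osteoblast-like cells. All 8 collagen receptors had a higher level in HFD over all mesenchymal-like cells, with the integrin chain Itgb1 at 409.5 and 492 UPM (0.26). Within subclusters 7 of 8 were higher in fibroblast progenitor-like, 4 of 8 in tenocyte-like and 3 of 6 counted in osteoblast-like cells. The median log2 ratio was 0.16 in the prolyl hydroxylation group, 0.14 in the lysyl group, 0.04 for folding and export, 0.02 for propeptide removal, -0.08 for crosslinking and 0.28 for receptors.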

How the data were processed

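Cells of the periosteum were measured with 10x Genomics 3′ chemistry, with 1 deposited table per diet, here called 1 library. The deposited tables hold raw UMI counts per gene and cell barcode, which the authors made with Cell Ranger 6.0.1 against mm10, per the submitters' processing notes; no column of any other sample was used (columns of other samples numbered 0). The labels number 4 mice per diet and nothing ties barcodes to mice, so no test between diets was made.

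Cells with over 500 and under 8000 genes and under 20% mitochondrial UMIs were kept. Clusters came from Seurat 5.3.0 in R 4.3.3, with sctransform 0.4.2 and SeuratObject 5.2.0, on 30 principal components at a resolution of 0.5, without collagen genes among the variable features, and mesenchymal-like cells again at 0.2. Doublets stayed in. Scrublet (scanpy 1.11.5) marked 9 ND and 23 HFD cells by its own threshold (0.149% and 0.370%), too few to be taken as working, so the 5% of cells with the highest scores (327 and 334) were left out as an alternative.

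UMIs were summed per class and library with pandas 2.3.3, scipy 1.17.1 and numpy 2.4.6 in Python 3.11.15 (matplotlib 3.10.9 for figures) and divided by the UMIs of the class. Intervals are exact 95% Poisson for levels, exact Clopper-Pearson for shares and for the split of UMIs between libraries or genes, and cover counting error only. Log2 ratios of HFD over ND had 0.5 added to each count. Ratios at equal subcluster weights had nothing added and an approximate normal interval of the counting error. Limits at a count of 0 used 3 counts. The ratio code was tested on simulated data.

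The members and gene lists were chosen with earlier results of these data known. Members were named with values in a class where they had at least 200 UMIs over both libraries; the members called there on fewer UMIs, and a few levels set beside them, were added after their values were seen. Of the maturation genes, those called and the one with most UMIs of each group were named, and for Col1a1, Col4a1 and Col14a1 the 5 genes of most similar pattern. Alternatives covered cell filters, clustering, scaling, doublets, background subtraction and single cells.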

Additional observations from a re-analysis of the deposited data

Results flagged for a closer look

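Col4a2 had opposite directions in different classes: its log2 ratio of HFD over ND was 0.87 in tenocyte-like cells and -0.65 in pericyte-like cells, each beyond counting error and 1.5-fold. As a mean over cells of the level per cell, the value in tenocyte-like cells was 0.39, under 1.5-fold. Col15a1 had 0.70 in mesenchymal-like and 0.92 in fibroblast progenitor-like cells but -0.67 in endothelial-like cells. Without the highest cell of each library the endothelial-like value was -0.45 (-1.11 to 0.24) and was not called. With 1 library per diet, these differences between classes were not tested.

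Outside the 37 genes, the cartilage collagen Col2a1 in mesenchymal-like cells was at 63.7 UPM in the ND library and 251 UPM in the HFD library. Most of these UMIs lay in the unnamed subcluster 4, where Col2a1 was at 419.6 and 2208 UPM. Col9a1 in the same cells was at 0.21 UPM (ND, 1 UMI) and 1.00 UPM (HFD, 7 UMIs). The barcodes removed by the cell filters, 285 in ND and 412 in HFD, held collagen at 626 and 1457 UPM.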

How the results depend on the processing

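No paired analysis was possible because the labels number the mice of each diet but the counts of each diet are 1 table whose columns carry no mouse number; for the same reason no replicate could be left out. On the log2 scale, the summed mesenchymal-like level (0.38) was 0.42 with doublets left out, 0.33 with median-of-ratios scaling, 0.21 as a mean over cells, 0.22 at 1000 UMIs per cell, 0.23 without the unnamed subclusters and 0.32 without the 1% of cells with most collagen UMIs. At equal subcluster weights (0.13) it was 0.17 with at least 200 detected genes, 0.0652 at resolution 1.0, 0.0723 with log-normalized counts, 0.15 without doublets, 0.10 with median-of-ratios scaling, 0.0582 as a mean over cells, 0.0512 at 1000 UMIs and 0.10 without the top 1% of cells. The endothelial-like sum (0.08) was 0.21 with log-normalized counts, and the pericyte-like sum (-0.08) was -0.37 without doublets. The 5 collagen genes called higher in mesenchymal-like cells were 2 at 1000 UMIs per cell. The causes of these changes were not tested. None of these results was called in the opposite direction, and the other 83 values of these results moved by less than their counting intervals or, for counts, by less than 1.5 times. Of the other values, for single genes and subcluster sums, 113 moved by more than that and 938 did not. The osteoblast-like sum (-0.0244) turned direction with at least 200 detected genes (0.0765), without the top 1% of cells (0.0592) and with median-of-ratios scaling (0.00301). The 5% rule for doublets, leaving out the unnamed subclusters or the cells with most collagen UMIs, and all alternatives within single subclusters were chosen after seeing the data.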
